A study of Rattus norvegicus with 4 samples.

Results

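RT1-T24-4, a class I heavy chain gene of the rat major histocompatibility complex (called RT1), was described together with 5 genes of class I antigen presentation: B2m, Tap1, Tap2, Psmb8 and Psmb9. The members were all rows of the count table whose symbol was 1 of these 6 names, so that 6 of the 32623 genes entered, and each name matched a single row. The 6 genes were chosen by the difference between TN (trigeminal neuralgia) and HC (healthy control) tissue seen earlier in these same counts. Their values in that contrast are therefore given as a description. Where members enter counts of genes tested on that contrast, those counts are no evidence about them.

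Spatial gene expression was measured with Visium, in which a tissue section lies on a slide of barcoded spots and each spot captures polyadenylated RNA from the small patch of tissue above it. All animals were wild type adult male Sprague-Dawley rats. TN was induced by chronic compression of the trigeminal nerve root on one side, and the diseased side of 1 animal was placed on each of 3 capture areas (TN1, TN2 and TN3), while HC was a single capture area that held tissue of 2 animals, which the barcodes do not separate. The sources differ on the origin of HC: the series description gives the healthy side of animals that also supplied TN tissue, and the study's methods describe sham-operated rats. With 1 HC area, condition and capture area cannot be told apart. On the second reading the animals differ between TN and HC as well, while on the first the HC animals are among the TN animals, and which of these readings holds is not given.

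The areas held 1587, 1256, 1917 and 2013 spots in TN1, TN2, TN3 and HC, and their totals lay between 23546025 and 41335930 unique molecules (UMIs). Median UMIs per spot of TN1, TN2 and TN3 were 9487, 30808 and 14480, and of HC 14616. Of the 3573 distinct barcode sequences, 2337 occurred in more than 1 area, since every area is printed with the same set of positions. TN1 stood apart from TN2 and TN3: its summed macrophage markers (12 genes) reached 596 CPM (counts scaled to 1000000 UMIs of the same sum of spots), against 1319 and 1895 CPM in TN2 and TN3 and 398 CPM in HC.

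Class I molecules display peptides from inside the cell to CD8 T cells. A heavy chain pairs with beta-2 microglobulin, the product of B2m, and is loaded in the endoplasmic reticulum with peptides that the Tap1-Tap2 transporter carries in from the cytosol. Psmb8 and Psmb9 are catalytic subunits of the immunoproteasome, which replace their constitutive counterparts when interferon is present and cut proteins into many of these peptides. In the nervous system class I genes are usually low in neurons at rest and higher in microglia, macrophages and endothelium. The RT1 complex holds many heavy chain genes that differ between rat strains and haplotypes, and near-identical copies can share reads, so counts of any single RT1 gene are uncertain in that respect. In the files RT1-T24-4 is a separate Ensembl gene from RT1-T24-3, and in RefSeq (GRCr8) the gene models of these 2 genes overlap on the same strand.

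Promoter sequence is shown for the members because interferon and NF-kB act on many class I genes through short elements near the start site. The 250 bases before the RefSeq start (GRCr8) were searched on both strands for an interferon-stimulated response element core, GAAANNGAAA, and for an NF-kB-like pattern, GGGANNNNCC. Among 33469 rat promoters of the same length, 3.41% held the first and 16.4% the second. All 6 members had an entry. Stretches of the members with a match, and the bases next to the start of RT1-T24-4, read as follows, in the direction of the gene, with matches in capitals.
RT1-T24-4 (chr20:2689183-2689332, plus strand): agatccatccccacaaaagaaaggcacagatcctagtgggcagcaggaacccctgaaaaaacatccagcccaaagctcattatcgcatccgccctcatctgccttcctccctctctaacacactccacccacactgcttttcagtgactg
B2m (chr3:129549155-129549227, plus strand): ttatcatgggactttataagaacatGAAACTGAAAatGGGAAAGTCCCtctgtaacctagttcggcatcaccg
Tap1 (chr20:4668564-4668689, minus strand): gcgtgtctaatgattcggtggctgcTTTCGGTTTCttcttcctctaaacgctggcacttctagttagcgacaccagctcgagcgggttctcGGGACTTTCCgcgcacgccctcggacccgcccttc
Tap2 (chr20:4652303-4652362, minus strand): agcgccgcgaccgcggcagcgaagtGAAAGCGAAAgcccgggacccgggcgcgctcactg
The interferon element occurred in 3 of the 6 members, 150 bases before the start in B2m, 121 in Tap1 (on the opposite strand) and 41 in Tap2. The NF-kB-like pattern occurred in B2m on both strands, as overlapping matches of 1 site, and in Tap1. Neither pattern was in the windows of RT1-T24-4, Psmb8 or Psmb9, which says only that these letters are absent there. Among the RT1 class I heavy chain genes, 18 of 21 had a promoter entry, and 3 of these held the interferon element, RT1-S2, RT1-N3 and RT1-S3. A match describes the letters and does not show binding.

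RT1-T24-4 was far lower in every TN area than in HC. Over all spots TN1, TN2 and TN3 had 99, 245 and 119 UMIs of it, or 4.2, 6.32 and 3.69 CPM, whereas HC had 1791 UMIs, or 43.3 CPM. The TN areas lay close together and well apart from HC, at a mean of 4.74 ± 1.39 CPM (SD, n = 3), so that the HC level was 9.14 times the TN mean. Taken singly, the HC level was 10.3 times that of TN1 (exact 95% interval 8.41 to 12.7), 6.86 times that of TN2 (6.0 to 7.87) and 11.7 times that of TN3 (9.75 to 14.3). These intervals, and all intervals of levels and shares below, cover counting error only. In summed spots, fewer cells with the transcript and less transcript per cell cannot be told apart.

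B2m, the light chain shared by all class I molecules, differed in the other direction. Its levels in TN1, TN2 and TN3 were 978, 1336 and 1872 CPM, and HC had 955 CPM. TN1 was within a few percent of HC (1.02 times; 1.01 to 1.04), whereas TN2 and TN3 were 1.4 and 1.96 times HC, and the TN mean was 1395 ± 450 CPM (SD, n = 3). The spread between TN areas was thus as large as the difference of their mean from HC.

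Tap1, which encodes 1 chain of the peptide transporter, had 10.6, 21.2 and 19 CPM in TN1, TN2 and TN3, and 9.97 CPM in HC. TN1 could not be separated from HC within counting error (1.07 times; 0.907 to 1.25), and TN2 and TN3 were 2.13 and 1.9 times HC. Psmb9, an immunoproteasome subunit, had 11.6, 22.9 and 25.6 CPM in TN1, TN2 and TN3 and 9.75 CPM in HC. Its TN mean was 20 ± 7.4 CPM (SD, n = 3), or 2.06 times HC. For B2m, Tap1 and Psmb9 alike, all 3 TN areas were above HC, with TN1 the nearest to it. Such a pattern was common: of 9776 genes with at least 500 UMIs, 33.7% were above HC in every TN area and 29.4% below it in every TN area.

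The other chain of the transporter and the second immunoproteasome subunit were barely detected. Tap2 had 7, 13 and 6 UMIs in the TN areas and 10 in HC, and the ratio of each TN area to HC had an interval that reached from below 1 to above 2. Psmb8 had 3, 5, 2 and 7 UMIs, or 17 in all. A difference between TN and HC was not detectable at this depth for either gene. Tap2 passed the filter on low counts over all spots only, and Psmb8 passed it in no comparison, so that 4 of the 6 members entered the comparisons of regions.

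**Figure D1:**
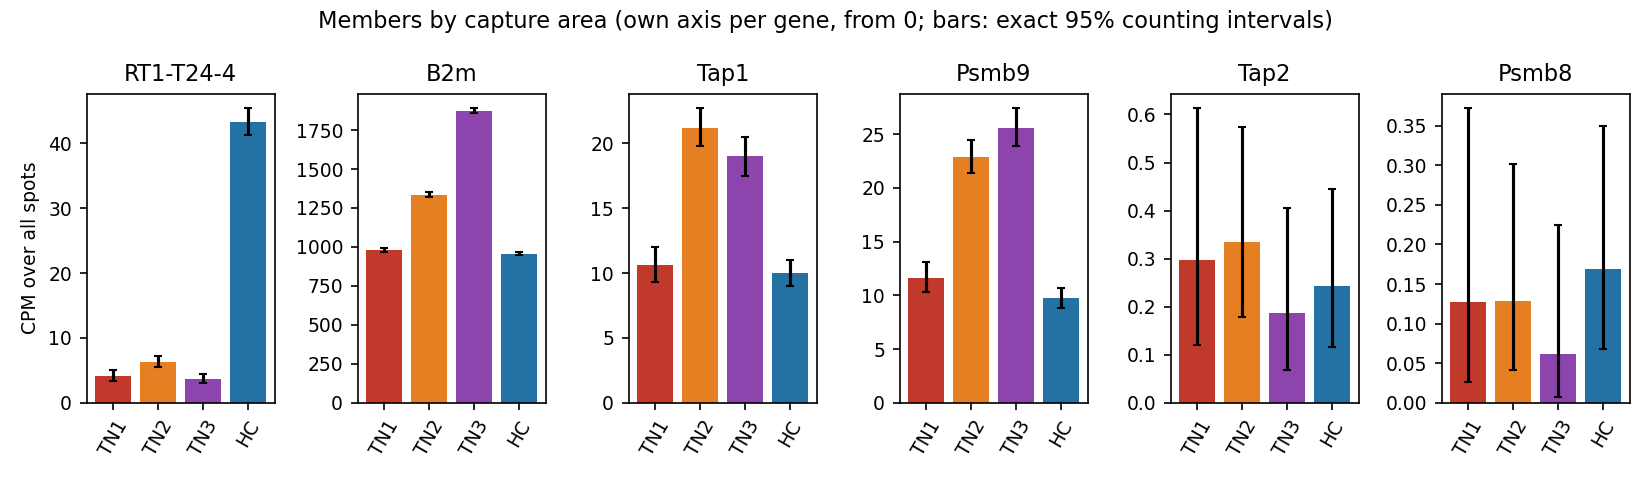
CPM of each member over all spots, by capture area, 1 panel per gene with its own axis from 0; error bars are exact 95% counting intervals. RT1-T24-4 stood at 43.3 CPM in HC and at 3.69 to 6.32 CPM in the TN areas, while B2m, Tap1 and Psmb9 were lowest in HC, next to TN1.

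The question of most interest was whether the lower RT1-T24-4 level in TN held in every tissue of the section. Spots were therefore grouped into 10 clusters from genes that included neither the members nor any other antigen presentation gene, and clusters were named from marker genes. Only regions with at least 20 spots in each of the 4 areas could be compared, and 4 met this. The ganglion region (labelled sensory neuron in the plots, from markers such as the sodium channel gene Scn10a) held 199, 361 and 163 spots of the TN areas and 660 of HC. A central myelin region held 278, 125, 225 and 435 spots, a region named from blood and bone genes 97, 63, 189 and 512, and cluster 7, which scored almost equally for sensory neuron and peripheral myelin markers and stayed unnamed, 172, 32, 269 and 389. In each of the 3 named regions and each area, at least 14 of 15, 9 of 10 and 10 of 10 of the markers of the ganglion, blood and bone and central myelin lists were higher inside the region than outside it.

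RT1-T24-4 was below HC in all 12 combinations of a TN area and a region. In the ganglion region its level was 5.22, 8.14 and 3.37 CPM in TN1, TN2 and TN3 and 43.1 CPM in HC. In central myelin it was 2.49, 2.71 and 1.73 CPM in TN and 34.1 CPM in HC, with only 4, 3 and 2 UMIs behind the TN values. The blood and bone region had 5.77, 7.93 and 4.36 CPM in TN, from 4, 3 and 4 UMIs, and 58.5 CPM in HC. Cluster 7 had 6.49, 1.08 and 3.35 CPM in TN, from 17, 1 and 14 UMIs, and 42.4 CPM in HC. The HC level thus stayed between 34.1 and 58.5 CPM across regions, and the TN level between 1.08 and 8.14 CPM, without overlap. Of the 9776 genes, 3.67% were below HC in every TN area of all 4 regions.

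**Figure D2:**
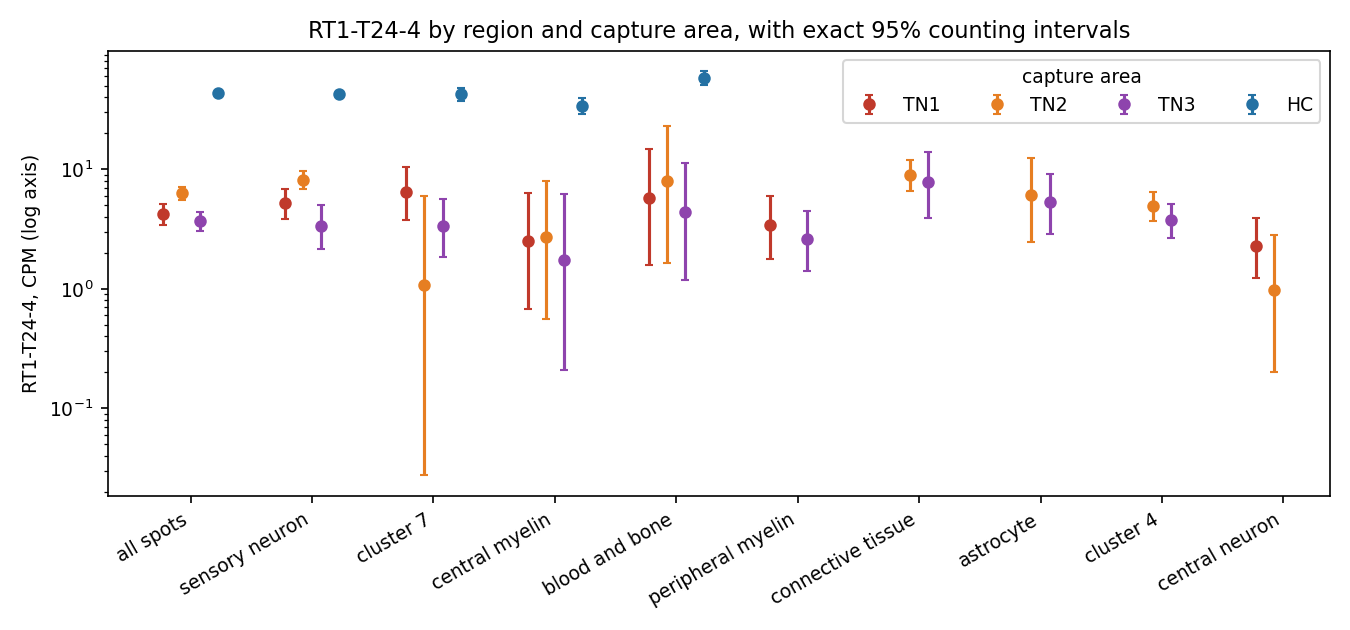
RT1-T24-4 in CPM (log axis) by region, 1 point per capture area with at least 20 spots of that region and exact 95% counting intervals. In all 4 regions with at least 20 spots in HC, the HC point (34.1 to 58.5 CPM) lay above those of all TN areas. The highest TN value there was 8.14 CPM. Regions with no point for HC, among them peripheral myelin with 17 HC spots, reached at most 8.92 CPM in TN.

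As a ratio of HC to the TN mean, the difference was 7.74 in the ganglion region, 9.73 in blood and bone, 11.6 in cluster 7 and 14.8 in central myelin. On the log2 scale of the edgeR fit, TN minus HC was -2.98 in the ganglion region, -3.37 in blood and bone, -3.43 in cluster 7 and -3.94 in central myelin, next to -3.28 over all spots. The ganglion region held clusters 1 and 8, and cluster 8 had no spot in HC. In cluster 1 alone RT1-T24-4 was at 4.13, 4.58 and 3.25 CPM in TN against 43.1 CPM in HC, while cluster 8 had 8.44, 8.79 and 3.57 CPM in the TN areas, and cluster 8 made up 321 of the 361 ganglion spots of TN2. With cluster 1 alone as the ganglion region, TN minus HC was -3.50 on the log2 scale.

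Whether these differences differed between regions is a separate quantity that did not choose the members, and it was tested as the interaction of region and condition with capture area as a block. Relative to the ganglion region, the TN minus HC difference of RT1-T24-4 on the log2 scale was -0.25 in blood and bone (95% interval -1.40 to 0.89; edgeR adjusted p = 0.997). For central myelin the value was -0.93 (-2.12 to 0.26; adjusted p = 0.836), and for cluster 7 it was -0.23 (-1.10 to 0.65; adjusted p = 1). None passed the threshold. The intervals still allow a region's difference to exceed that of the ganglion by more than 4-fold in central myelin, where TN had 9 UMIs in all, so that a uniform difference was not shown.

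Of 10756 genes, this test called 0.0186% in blood and bone, 0.0372% in central myelin and 0% in cluster 7, and 560, 684 and 176 genes, respectively, had an unadjusted p under 0.05. Among the 12 interaction values of RT1-T24-4, B2m, Tap1 and Psmb9, 0 had an unadjusted p under 0.05, the lowest being 0.109, and 0 of the 142 values from alternative settings were called. For B2m the 3 values lay between 0.00 and 0.17, with intervals within -0.58 and 0.75. Tap1 in blood and bone was the farthest from 0 (-1.07; -2.41 to 0.27; adjusted p = 0.994): the TN areas were at 1.44, 5.29 and 9.81 CPM there, from 1, 2 and 9 UMIs, all below the 10.3 CPM of HC, whereas in the other 3 regions every TN area was above HC. Psmb9 was above HC in 11 of the 12 combinations and B2m in 12 of 12, as were 5.41% of the 9776 genes.

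Other ways of drawing regions brought further TN spots into the comparison and took some regions out of it. They added almost no HC tissue. In the main clustering only the 17 HC spots of peripheral myelin lay outside the regions compared above. The redrawn peripheral myelin (65 HC spots) and astrocyte (179 HC spots) regions thus mostly regroup HC spots already compared, and their HC levels are no separate observation. With 8 clusters a peripheral myelin region existed in every area, and RT1-T24-4 was at 46.3 CPM there in HC against a TN mean of 3.5 ± 0.758 CPM (SD, n = 3), a ratio of 13.2. Spots were also assigned directly by markers, each to the list with its highest score and without a minimum. The astrocyte region drawn this way had a TN mean of 3.83 ± 1.29 CPM (SD, n = 3) against 47.4 CPM in HC, a ratio of 12.4. Blood and bone no longer had 20 spots in every area with 12 clusters, with log-normalised counts or with spots assigned by markers. With log-normalised counts only the ganglion and central myelin regions could be compared. Over all 54 within-region values from all settings, TN minus HC of RT1-T24-4 lay between -4.19 and -2.72 on the log2 scale.

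The share of spots with at least 1 UMI of RT1-T24-4 showed the same order. In the ganglion region it was 78.5% of HC spots (exact 95% interval 75.2 to 81.6), against 20.6% in TN1, 28.3% in TN2 and 12.9% in TN3. In central myelin it was 31.3% of HC spots and between 0.889% and 2.4% in TN. Since these shares rise with the UMIs per spot, each spot was also thinned to 2000 UMIs. Then the HC shares were 9.7% in the ganglion region, 12% in blood and bone, 5.53% in central myelin and 8.09% in cluster 7, while 5 of 199 spots (2.51%) in TN1, 5 of 361 (1.39%) in TN2 and 0 of 163 in TN3 remained in the ganglion region, the last of which allows a share of up to 2.24% (exact 95% limit). In blood and bone 1 of 93, 0 of 52 and 0 of 162 TN spots remained, and the limits for the zeros were 6.85% and 2.25%. In central myelin TN1 and TN3 kept 1 of 277 and 0 of 205 spots, and TN2 kept 2 of 125 (1.6%; 0.194 to 5.66), an interval that overlaps that of HC (3.57 to 8.12). Cluster 7 kept 2 of 169, 0 of 27 and 2 of 202 TN spots, and the limit for the 27 spots of TN2, 12.8%, lies above the HC share. At this depth TN2 was thus not separated from HC in these last regions. Over all spots, 443 HC spots held 2 or more UMIs and the richest held 12, whereas no TN spot held more than 3. No tissue of the section is known to lack the transcript, so a background share could not be set, and the spread of RNA between spots was not tested.

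The regions were also compared with the ganglion region without regard to condition, with capture area as a block. These calls are common in such a comparison: 43.2% of 10756 genes were called in blood and bone, 60.7% in central myelin and 9.72% in cluster 7. RT1-T24-4 was 0.56 higher in blood and bone on the log2 scale (0.08 to 1.03; edgeR adjusted p = 0.0526), 0.33 lower in central myelin (-0.33; -0.79 to 0.13; adjusted p = 0.207) and 0.12 lower in cluster 7 (-0.12; -0.54 to 0.31; adjusted p = 0.776), and none passed. Without TN2 the value for blood and bone was 0.65 (adjusted p = 0.00556), and with cluster 1 alone as the ganglion region it was 0.72 (adjusted p = 0.00409). All these values rest mainly on the single HC area, where RT1-T24-4 was high in the contrast that chose it. In blood and bone HC held 233 UMIs of RT1-T24-4 and the TN areas 11, and in central myelin 176 and 9. Without HC the gene had too few counts to be tested, so these values and calls do not show a regional pattern in TN.

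B2m was called higher in central myelin (0.44; 0.22 to 0.67; adjusted p = 0.00149) and in blood and bone (0.39; 0.16 to 0.62; adjusted p = 0.00729) than in the ganglion region. The first call was lost with log-normalised counts (adjusted p = 0.059) and with spots assigned by markers (adjusted p = 0.0506). The second was lost without TN1 (0.31, adjusted p = 0.0642) or without TN3 (0.32, adjusted p = 0.0758). Psmb9 was called higher in blood and bone (0.86; 0.31 to 1.42; adjusted p = 0.0126), where the call was lost without TN3 (0.81, adjusted p = 0.0551) or without HC (0.76, adjusted p = 0.148). It was also called higher in cluster 7 (0.70; 0.27 to 1.14; adjusted p = 0.0374), where the call was lost without TN1 (0.45, adjusted p = 0.303), TN3 (0.71, adjusted p = 0.134) or HC (0.86, adjusted p = 0.0804). Psmb9 in central myelin did not pass (0.46, adjusted p = 0.104), but was called without TN2 (0.66, adjusted p = 0.0353) and with cluster 1 alone as the ganglion region (0.65, adjusted p = 0.0261). Tap1 passed in no region, with its lowest value in central myelin (-0.60; -1.18 to -0.03; adjusted p = 0.0646). There it was called lower under 5 of 14 alternatives, among them without TN1 (-0.71, adjusted p = 0.024), without the filter on low counts (-0.71, adjusted p = 0.00692) and with log-normalised counts (-0.84, adjusted p = 0.0269). Of the 12 values, 4 were called, all higher than in the ganglion region. Summed macrophage markers in HC were at 1232 CPM in central myelin, 633 in blood and bone and 294 in cluster 7 against 220 CPM in the ganglion region. They were also higher than in the ganglion region in every TN area, except in cluster 7 of TN2 (802 against 945 CPM). Their part in the differences between regions was not tested.

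**Figure D3:**
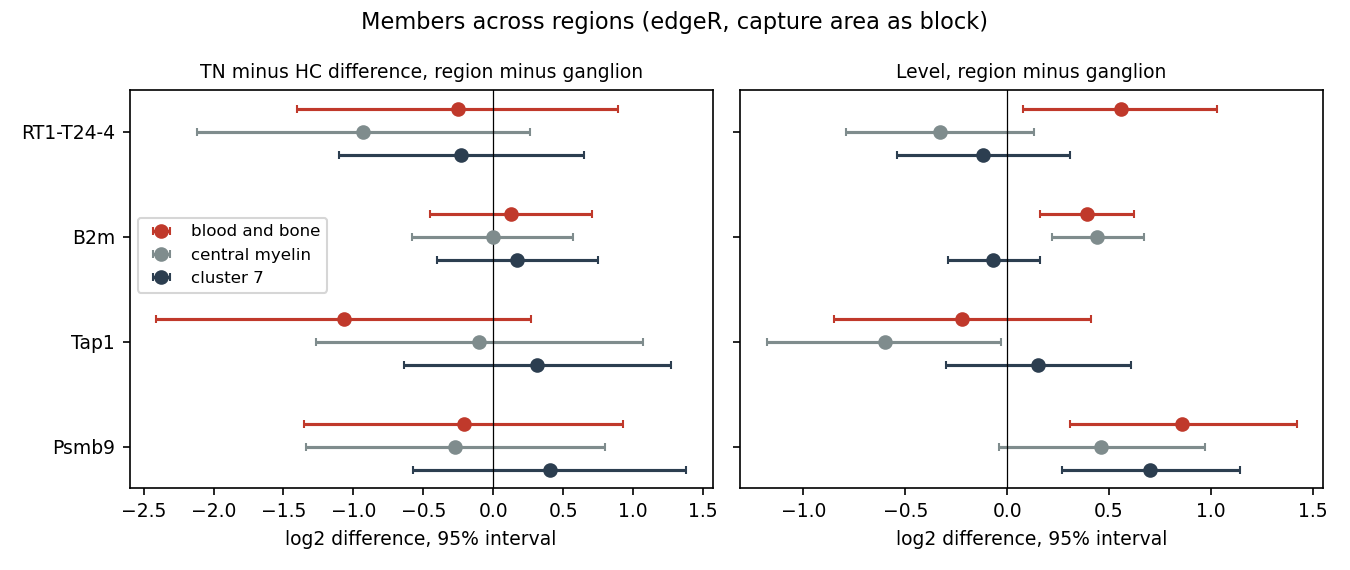
Log2 differences with 95% intervals for RT1-T24-4, B2m, Tap1 and Psmb9 in 3 regions against the ganglion region: left, the difference of the TN minus HC contrast; right, the difference of the level itself, both from edgeR with capture area as a block. All 12 intervals on the left include 0, whereas B2m in blood and bone and central myelin, and Psmb9 in blood and bone and cluster 7, passed the threshold on the right.

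Several regions were present in TN areas only. The astrocyte region held B2m at 2396 CPM in TN2 and at 3057 CPM in TN3, while RT1-T24-4 was at 6.09 and 5.35 CPM there. The TN3 value was the highest B2m level of any region and area, followed by 2561 CPM in connective tissue of TN3. In the connective tissue region Tap1 was at 33.3 and 28.2 CPM and Psmb9 at 44.8 and 38.8 CPM in TN2 and TN3, the highest levels of either gene, and RT1-T24-4 was at 8.92 and 7.76 CPM. The central neuron region was at the other end, with B2m at 808 and 740 CPM in TN1 and TN2, Psmb9 at 5.64 and 5.49 CPM, and RT1-T24-4 at 2.29 and 0.969 CPM. HC held no spot of these regions in this clustering, so none entered a comparison there. Assigning spots by markers gave HC an astrocyte region of 179 spots. That way every spot receives a list whatever its marker level, so it does not show how much astrocyte tissue HC held.

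Because the light chain is common to all heavy chains, RT1-T24-4 was also set against B2m. Per 1000 UMIs of B2m TN1, TN2 and TN3 had 4.3, 4.73 and 1.97 UMIs of RT1-T24-4 over all spots, and HC had 45.4. By region the ratio was between 30.9 and 59 in HC and between 1 and 6.98 in TN, without overlap. Both genes were chosen by the contrast of TN and HC, so this separation is no separate finding.

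The RT1 class I heavy chains did not move together. Of the 21 such genes in the table, 11 had at least 500 UMIs, 6 had between 2 and 93, and 4 had none. Of the 11, 7 were above HC in all TN areas and 3 were below it in all, where 33.7% and 29.4% of the 9776 genes were, and RT1-A2 was mixed, with TN1, TN2 and TN3 at 41.5, 132 and 145 CPM and HC at 81.5 CPM. The most abundant, RT1-CE4, was at 198, 379 and 403 CPM in TN and 144 CPM in HC, and RT1-CE10 followed it closely at 170, 326 and 369 CPM against 134. RT1-A1, a classical class I gene of the RT1-A region, had 50, 75.1 and 64.1 CPM in TN and 46.6 in HC. RT1-M3-1, which presents formylated peptides, had 18.5, 25.3 and 18 CPM in TN and 13 in HC. RT1-N2 was at 8.03, 10.5 and 8.5 CPM against 4.23, and RT1-N3 at 2.93, 5.42 and 4.84 CPM against 1.77.

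The nearest relative by name, RT1-T24-3, differed in the opposite direction to RT1-T24-4, with TN1, TN2 and TN3 at 12.1, 18.7 and 12.9 CPM and HC at 7.55 CPM, a TN mean of 1.93 times HC. The other genes below HC in all TN areas were RT1-CE5, at 17.2, 22.4 and 20.5 CPM against 33, and RT1-S3, at 10.5, 19 and 15.7 CPM against 20.2. RT1-S2, with 18 UMIs in all, had 17 of them in HC and 1 in TN1. The TN mean of RT1-CE5 was 0.607 and that of RT1-S3 0.748 times HC, against 0.109 for RT1-T24-4.

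**Figure D4:**
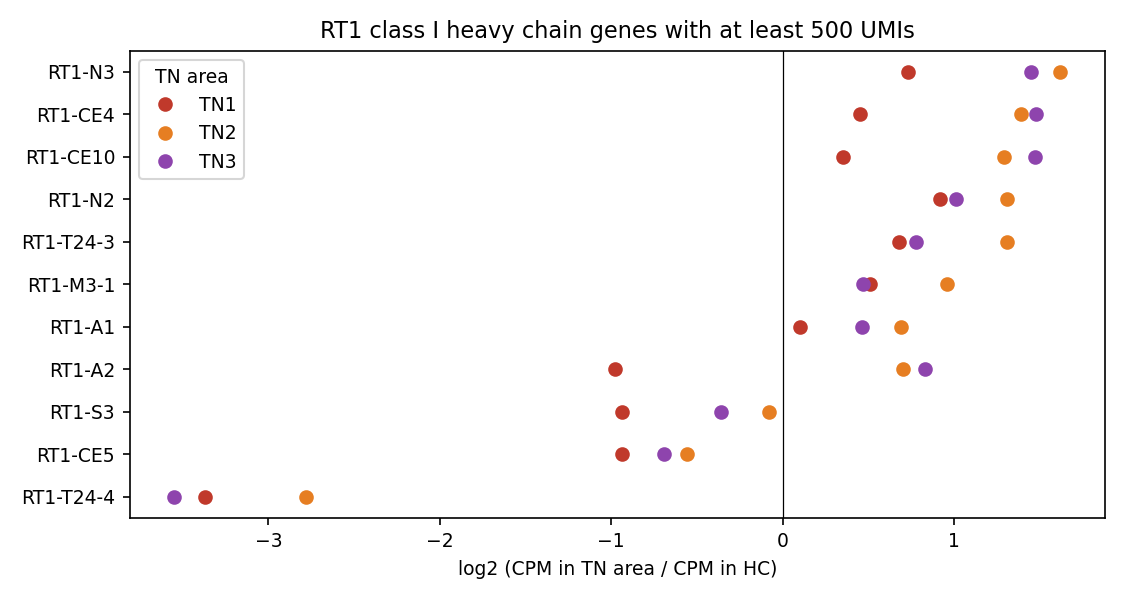
Log2 ratio of CPM in each TN area to HC for the 11 RT1 class I heavy chain genes with at least 500 UMIs, 1 point per TN area, ordered by the TN mean. RT1-T24-4 lay between -3.55 and -2.78, RT1-CE5 and RT1-S3 between -0.94 and -0.08, and RT1-T24-3 above 0 in all TN areas.

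RefSeq places 41 other genes within 100 kb of RT1-T24-4, of which 13 matched the table by symbol. Among those that are not RT1 genes, the nucleolar GTPase gene Gnl1 was at 78.3, 81 and 70.8 CPM in TN and 84.6 in HC, and Abcf1, a translation factor gene, at 88.8, 112 and 87.1 CPM against 120. Mrps18b, a mitochondrial ribosomal protein gene, had 74.2, 73.1 and 64.1 CPM in TN and 96.4 in HC, and Ppp1r10 had 39.4, 35.5 and 40.9 CPM against 28.8.

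To place RT1-T24-4 among all genes, those with at least 200 UMIs in HC were searched for a level at least 4-fold below HC in every TN area. This held for 10 of 8913 genes, or 0.112%, RT1-T24-4 among them, and since the contrast chose it, its presence there is no finding. The other 9 were Tph1, which encodes tryptophan hydroxylase, the neutrophil genes S100a8, S100a9, Camp, Ngp and RatNP-3b, the mast cell protease gene Mcpt8l3, and RGD1566159 and AABR07006502.1, which have no common name. In 8 of these 9, as in RT1-T24-4, the HC level was highest in blood and bone. In these 8 the highest of the 4 regions exceeded the lowest by 6.43-fold (RGD1566159) to 29.2-fold (Ngp). For RT1-T24-4 it did so by 1.72-fold. AABR07006502.1 was highest in the ganglion region of HC, at 15.5 CPM. The 4-fold criterion held in every TN area of all 4 regions for 1 of the 10 genes, RT1-T24-4. It held in 1 to 3 regions for the others, several of which had few UMIs outside blood and bone. This too uses the contrast that chose RT1-T24-4 and is no finding. How many genes outside these 10 met the criterion in all 4 regions was not counted.

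**Figure D5:**
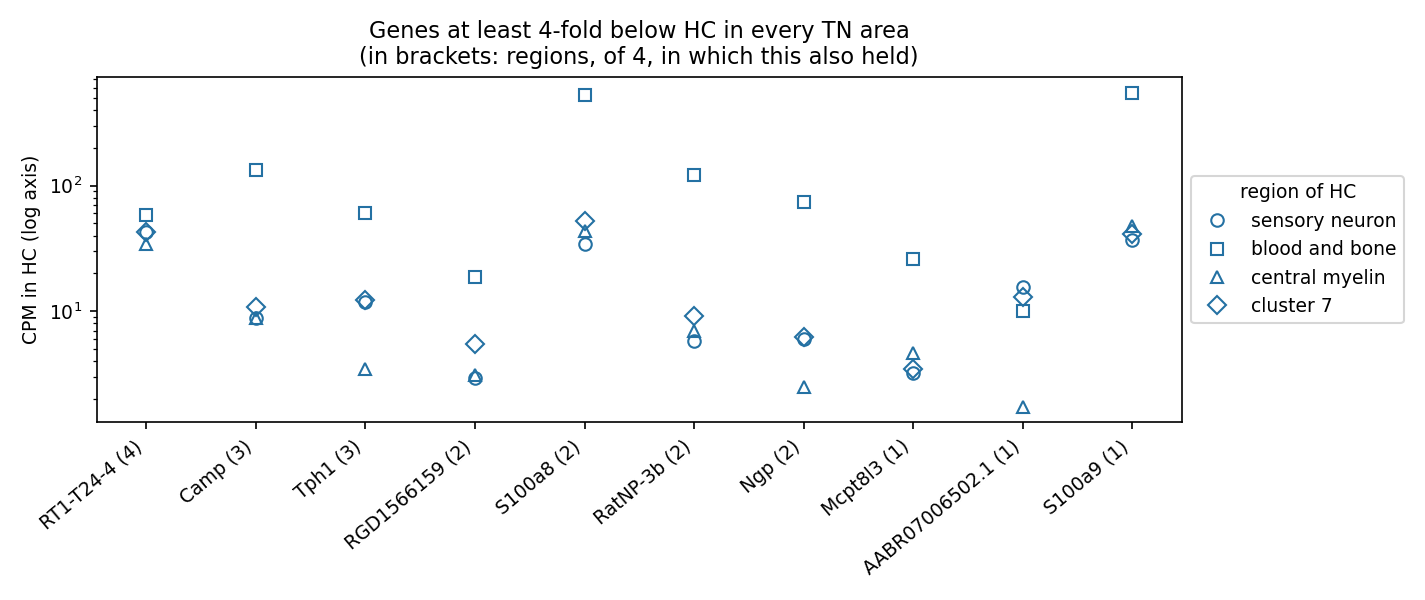
Level in CPM (log axis) in each of the 4 regions of HC for the 10 genes that were at least 4-fold below HC in every TN area over all spots; the number after each name is the number of regions in which this held too. RT1-T24-4 lay between 34.1 and 58.5 CPM in the 4 regions. Like 8 of the other 9, it was highest in blood and bone.

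The genes most like RT1-T24-4 across 26 sums of a region and an area, by Pearson's r of log2(CPM + 5) over 11264 genes, were Gnb3 (r = 0.842), Tph1 (0.84), Dsp (0.802), RGD1566159 (0.784) and AABR07006502.1 (0.761). These r values describe sums that share areas, and only 4 sums come from HC. RT1-T24-4 was high in those and low in all TN sums. The ranking therefore mostly follows the contrast that chose RT1-T24-4 and is no separate finding. Gnb3, a G protein subunit gene, had 5.32 CPM in HC and 0.34, 0.567 and 1.61 CPM in TN, and Dsp, the desmoplakin gene, had 8.35 CPM in HC and 2.17, 1.13 and 0.868 CPM in TN. The other members were not among them: r was -0.215 for B2m, -0.06 for Tap1 and -0.138 for Psmb9, and it was 0.54 for RT1-CE5, 0.517 for RT1-S3 and -0.343 for RT1-T24-3.

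The rest of the pathway was described from gene lists. Over all spots the edgeR test called 0% of 14902 genes between TN and HC, although for 1271 the unadjusted p was below 0.05. DESeq2 called 144 genes, and without TN1 edgeR called 2171. The median log2 difference of all genes tested was 0.06. Regulators of class I transcription include the interferon receptors, Stat and Irf factors and NF-kB subunits, and 20 of 22 genes were tested. All 20 had a fitted TN minus HC difference above 0, with a median of 0.61. Of these, 0 were called by either tool and 1 had an unadjusted edgeR p under 0.05. The differences ranged from 0.01 for Stat2 to 1.88 for Socs3, a suppressor of cytokine signalling with 2 UMIs in HC and 1, 11 and 7 in TN. Higher in these lists refers to the fitted difference and not to every TN area. Jak1, for example, was at 7.98, 3.38 and 3.97 CPM in TN1, TN2 and TN3 and 4.26 CPM in HC. Irf1, an activator of class I genes, was at 7.3, 20.8 and 19.6 CPM in TN and 7.09 in HC, again with TN1 next to HC. Nlrc5, the main class I transactivator, had 5 UMIs in all.

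Peptide transport and loading genes had a median of 0.27 over 8 of 8 genes tested, 7 of them higher and 0 called by either tool. They reached from -0.31 for Canx, the chaperone calnexin, to 0.89 for Tapbpl, a relative of tapasin. In the immunoproteasome list, 4 of 5 genes were tested, with a median of 0.49 and 0 called by either tool, and Psmb9 (0.96) and Psmb10 (-0.35), the third catalytic subunit, marked its ends. Psmb10 had 71.6, 78.8 and 73.9 CPM in TN and 89.8 in HC, below HC in every TN area. The constitutive counterparts had a median of -0.15 over 5 genes, from -0.53 for Psmb7 to 0.08 for Psmb6, and 0 were called. Class I-like genes outside RT1 had a median of 0.81 over 5 of 6 genes, with Mr1, which presents vitamin B metabolites, the highest at 1.96 and the iron regulator Hfe the lowest at 0.29, and 0 called by either tool.

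Class II presentation, included for contrast since it marks professional antigen presenting cells, showed the largest list median. Of 12 genes 8 were tested, with a median of 2.52 and all 8 higher in TN, from RT1-DOa (0.9) to RT1-Bb (3.7). edgeR called 0 of them, 7 having an unadjusted p below 0.05, whereas 5 were called by DESeq2. Cd74, the invariant chain, was at 388, 590 and 527 CPM in TN and 91.5 CPM in HC. The RT1 class I heavy chains had a median of 0.57 over 14 genes tested, 10 higher and 4 lower, and 0 called by edgeR. The 4 genes with an unadjusted p below 0.05 were RT1-N2, RT1-S2, RT1-CE5 and RT1-T24-4, and DESeq2 called RT1-T24-4 alone, but this contrast had chosen RT1-T24-4, so its calls are no evidence. RT1-CE1 (17 UMIs in all) marked the upper end at 1.74, and RT1-S2 the lower end.

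Macrophage and T and NK cell markers were higher in TN, like B2m, Tap1 and Psmb9, and their part in those differences was not tested. All 12 macrophage markers were found, 11 were above HC in every TN area and 1 was below it in every TN area, against the 33.7% and 29.4% of the 9776 genes, and their sum was 596 to 1895 CPM in TN and 398 in HC. T and NK cell markers summed to 5.65, 27.8 and 28.9 CPM in TN and 2.25 CPM in HC, with 9 of 11 above HC in every TN area, 0 below it in every one, and Gzmb at 0 in TN1 and TN3. B cell markers (4 of 5 found) summed to 0.284 to 1.49 CPM in TN and 2.2 in HC, with 0 of 4 above and 2 of 4 below HC in every TN area and Jchain at 0 in HC, TN1 and TN2. Endothelial markers (6 of 7 found) summed to 194 to 220 CPM in TN and 167 in HC, with 3 of 6 above and 1 of 6 below HC in every TN area. By region in HC, the macrophage sum ranged from 220 CPM in the ganglion region to 1232 in central myelin, where RT1-T24-4 was at 43.1 and 34.1 CPM.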

How the data were processed

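The authors processed the Visium libraries with Space Ranger 1.2.0 (with STAR), and the deposited matrix holds raw UMI counts per gene and spot, without normalization, for 4 capture areas marked by barcode suffix. The genome build is not given in the sources used here. Members and lists were chosen with earlier results of these data known. Counts were summed per area or per region and area. Regions came from SCTransform (sctransform 0.4.2), 30 principal components and k-means with 10 clusters, without antigen presentation genes, and were named from marker lists. A cluster whose 2 leading lists lay within 0.25 stayed unnamed. Sums were tested with edgeR 4.0.16 (quasi-likelihood, TMM, filterByExpr, Benjamini-Hochberg over all genes, threshold 0.05). Replicates were capture areas, and the 3 TN areas came from different animals. Alternatives were DESeq2 1.42.0, other scalings, filters and clusterings, and leaving out areas. Named genes were the members, heavy chains with at least 500 UMIs, the ends of each list and the 5 genes most like RT1-T24-4. The neighbours, the 4-fold genes and a few further list genes were named after their values were seen. Tests were checked on simulated data with genes changed by log2 1, 2 or 3. The TN against HC test over all spots recovered 1.69%, 6.45% and 29.6% of them, with 7 false calls. The interaction test recovered 13.6%, 75.3% and 77.6%, with 24 false calls, and the test between regions 10.2%, 67.6% and 77.6%, with 4. A gene that was not called may thus still differ, above all between TN and HC, and a called gene may be a false call. For the last 2 tests only blood and bone was changed, in genes of all levels. Recovery of genes with as few UMIs as RT1-T24-4 in TN was not measured separately. Sequences are from RefSeq (GRCr8). Counting intervals are exact (95%).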

Additional observations from a re-analysis of the deposited data

How the results depend on the processing

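TN minus HC of RT1-T24-4 kept its direction in all alternatives run, over all spots and within regions. Leaving out 1 TN area gave log2 values of -3.51 to -3.12 over all spots, -3.35 to -2.72 in the ganglion region, -3.50 to -3.20 in blood and bone, -4.02 to -3.81 in central myelin and -3.95 to -3.21 in cluster 7. No member's interaction was called under any alternative, but small values changed sign. With cluster 1 alone as the ganglion region, chosen after seeing the data, RT1-T24-4 gave 0.21 in blood and bone and 0.17 in cluster 7, Psmb9 0.07 in blood and bone and 0.02 in central myelin, and Tap1 0.11 in central myelin. Leaving out 1 TN area gave RT1-T24-4 -0.48 to -0.07 in blood and bone, -1.11 to -0.70 in central myelin and -0.70 to 0.19 in cluster 7 (0.19 without TN2). B2m in blood and bone gave -0.02 without the filter, -0.01 without mitochondrial, ribosomal and hemoglobin genes and ranged from -0.02 (without TN3) to 0.14 with 1 TN area left out. The same ranges were -0.43 to 0.10 for Psmb9 in blood and bone, -0.94 to 0.09 for Psmb9 and -0.34 to 0.16 for Tap1 in central myelin (each highest without TN2), and -0.03 (without TN1) to 0.50 for Tap1 in cluster 7. Spots assigned by markers gave 0.29 for Tap1 in central myelin.

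For levels between regions, RT1-T24-4 in blood and bone was called without mitochondrial, ribosomal and hemoglobin genes (0.60; adjusted p = 0.0426) and with cluster 1 alone (0.72), and ranged from 0.48 to 0.65 with 1 TN area left out. In central myelin it was called with spots assigned by markers (-0.66; adjusted p = 0.0424), and ranged from -0.38 to -0.19. In cluster 7 it ranged from -0.21 to 0.04 with 1 TN area left out and was 0.06 with cluster 1 alone. Without HC it had too few counts to be tested. Without the replicate block for capture area, RT1-T24-4 was 0.02 in central myelin and 0.03 in cluster 7, the B2m and Psmb9 calls were lost (adjusted p from 0.0704 to 0.437), and 2639 genes were called in blood and bone and 47 in cluster 7. With 1 area left out, B2m in cluster 7 ranged from -0.14 to 0.01 (without HC) and Tap1 from -0.10 (without TN1) to 0.28.

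Counts of genes called moved as follows, and the cause was not tested. Over all spots edgeR called 0 genes, DESeq2 144, and edgeR 0 to 2171 with 1 TN area left out (2171 without TN1). Interactions called 2, 4 and 0 genes in blood and bone, central myelin and cluster 7. They were 61, 98 and 4 without the filter, 9 in central myelin without mitochondrial, ribosomal and hemoglobin genes, 0 and 2 in blood and bone and central myelin with 8 clusters, and 0 and 1 with cluster 1 alone. In central myelin they were 0 with 12 clusters, with log-normalised counts and with spots assigned by markers. With 1 TN area left out they were 1 to 20 in blood and bone, 3 to 24 in central myelin and 0 in cluster 7. Region calls were 4651, 6530 and 1045, ranged from 3065 to 4592, 4861 to 6507 and 216 to 1213 with 1 area left out, and reached 2223 in cluster 7 with cluster 1 alone. Shares of spots with an RT1-T24-4 UMI fell with thinning to 2000 UMIs, from 49.4% to 8.98% in HC and 9.21% to 0.715% in TN over all spots, and from 78.5% to 9.70% and 20.6% to 1.30% in the ganglion region. The last HC share was 68.6% with 8 clusters and 70.4% with spots assigned by markers. With 1 TN area left out, the TN mean share was 5.67% to 11% over all spots and 16.8% to 24.5% in the ganglion region.

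The single HC area limits every TN and HC comparison. Fewer than 5 UMIs lie behind 7 of the 12 TN levels of RT1-T24-4 by region, and Tap2 and Psmb8 are too sparse to compare.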
